A study of Homo sapiens with 18 samples.

Results

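Antisense long noncoding RNAs are transcripts made from the DNA strand opposite a known gene and named after that gene with the ending -AS and a digit. The set described here holds 486 of them among 60675 human gene rows in the deposited count table. A gene belongs to the set if the table gives it the biotype lncRNA, if its symbol ends in this way, and if its mean level over all 18 libraries is at least 2 CPM, where CPM is the gene's count divided by the library's total count and multiplied by 1000000. OIP5-AS1 and EPB41L4A-AS1 are left out by name. Of 1600 lncRNA rows with such a symbol, 1112 lay under the minimum. Members were thus selected on their mean CPM over all libraries, and their levels are given as a description. Mean levels use this CPM. CPM values of single libraries are on another scale. They are scaled by TMM, which multiplies each library's total by a normalization factor (0.72 to 1.24).

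Natural antisense transcripts often start near the promoter of the gene they oppose, or run across its body or its end. Some act on their neighbour by blocking transcription, recruiting chromatin modifiers or pairing with the sense transcript, and many have no known role. An RNA found in polysomes is bound by several ribosomes or sediments with such complexes, and presence there does not by itself show that a protein is made. YTHDF1, YTHDF2 and YTHDF3 are cytoplasmic proteins that bind N6-methyladenosine in RNA and are known for effects on mRNA translation and decay. In HyperTRIBE, a fusion of an RNA-binding protein with the catalytic domain of the adenosine deaminase ADAR edits adenosines near the bound sites, so that binding is read from the sequence.

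The samples came from HEK293T, a human embryonic kidney line, carrying 1 of 3 fusions: YTHDF1-ADAR, YTHDF2-ADAR or YTHDF3-ADAR. All cells received doxycycline at 1 µg/mL for 24 h to switch the fusion on, and cycloheximide at 100 µg/mL for 10 min to hold ribosomes on RNA. Total RNA (input) and polysome RNA, pooled from the sucrose gradient fractions (10 to 50%) with more than 2 ribosomes, were sequenced after rRNA depletion with a strand-marking kit. Each of the 6 groups has 3 libraries, and no library without a fusion is used here, so the effect of the fusions themselves cannot be told apart from the state of the cells. The labels do not say whether the 3 libraries of a group came from separate cultures, and p-values then measure only the spread between these samples. Human gene counts summed to between 42699303 and 67549159 per library.

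The gene named in each line's label stood highest in that line, as the mean of 3 libraries: YTHDF1 counts ran from 318 to 445 CPM in its line against at most 96.2 elsewhere, and YTHDF2 from 260 to 312 against at most 180. YTHDF3 ran from 68.7 to 89.1 CPM in its line and overlapped the polysome libraries of the YTHDF1-ADAR line, which reached 79.4. ADARB1, an adenosine deaminase gene, differed between the lines without overlap. It ran from 1080 to 1651 CPM in YTHDF3-ADAR, 198 to 268 in YTHDF1-ADAR and 32.4 to 40.5 in YTHDF2-ADAR. Replicate 1 of YTHDF3-ADAR read 1080 in total and 1410 in polysome RNA. Whether these reads come from the fusions was not tested. The HEK293T markers VIM and NEFM were at 315 and 444 CPM on average, while PTPRC, CD3E and ALB, markers of leukocytes, T cells and hepatocytes, were at or under 0.05. Replicate 1 of the YTHDF3-ADAR line stood apart in both fractions. Over the antisense RNAs, the SD of its log2 differences from replicates 2 and 3 was 0.528 and 0.503 in total RNA and 0.533 and 0.588 in polysome RNA. Replicates 2 and 3 differed from each other by 0.178 and 0.271, and pairs in the other lines by 0.160 to 0.300. Over all genes, its total RNA library was closer to the YTHDF1-ADAR and YTHDF2-ADAR means (0.338 and 0.341) than to its own replicates (0.572 and 0.529). Results that rest on it are given with and without it.

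Reads of an antisense gene and of the gene it overlaps can be mixed in these counts. The kit marks strand, but no source used here says whether the counting used the strand. MIF-AS1 and MIF had count ratios between 0.9998 and 1.00 in the 18 libraries, so their counts are nearly equal. Over the 291 genes lying wholly inside the opposite-strand exons of 1 protein-coding gene covered at 2 or more reads per base, the median ratio of their reads per base to those of that gene was 1.60 (quartiles 0.66 and 2.45). For 323 genes wholly inside the exons of 1 such gene on their own strand, it was 0.33 (quartiles 0.084 and 2.45). Of the 486 antisense RNAs, 451 share exon bases with an opposite-strand gene, 19 lie at least partly within such a gene without sharing exon bases, and 16 lie outside. If the opposite gene's reads were spread evenly over its exons and counted for both, they would account for a median of 27.9% of an antisense RNA's reads. This share, called the opposite-gene share below, was at least 50% in 124 members, 10 to 50% in 261 and under 10% in 101. The part of these reads in each result below was not tested, and the 35 members with no opposite exon bases are given separately. The share counts exons only, so it does not cover reads from introns of an opposite gene. Of the 35, 19 lie at least partly within such a gene and may hold such reads. A further 54 members share exon bases with a gene on their own strand.

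The position of the antisense start relative to the sense start differed across the set. The sense partner, the gene whose symbol remains when the ending is removed, had a row in the table for 477 members, and 475 of these partners were protein coding. The opposite gene that could add the most reads was not always this partner. Examples are UCHL3 for LMO7-AS1, TMED7 for TICAM2-AS1, FDPS for RUSC1-AS1 and RBM8A for LIX1L-AS1. The pair was arranged head to head and overlapping for 204 members, with a median of 844 bases between the starts. For 22 members it was head to head and apart, with a median of 117.5 bases. The antisense gene lay inside its partner's span in 114 cases, overlapped tail to tail in 100, spanned the partner in 36, and was tail to tail and apart in 1. In RefSeq (GRCh38.p14), 360 member symbols have a promoter window from 250 bases before to 50 bases after the start. Of these windows, 120 (33.3%) overlapped a window on the opposite strand, against 16.3% of all 35116 windows, and 47 (13.1%) overlapped the window of their own partner.

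The stretch between an antisense start and its partner's start is shown for 3 head-to-head pairs whose antisense RNA was lower in polysome RNA in every line, because their partners moved in different ways. Each is the minus strand read 5′ to 3′. Capitals mark the bases between the start of the partner and the start of the antisense RNA, and the lower-case letters are the first 50 bases of the antisense RNA. UBAC2-AS1 is shown from chr13:99200708-99200853, SRRM2-AS1 from chr16:2752551-2752637 and LENG8-AS1 from chr19:54448989-54449198.
UBAC2-AS1: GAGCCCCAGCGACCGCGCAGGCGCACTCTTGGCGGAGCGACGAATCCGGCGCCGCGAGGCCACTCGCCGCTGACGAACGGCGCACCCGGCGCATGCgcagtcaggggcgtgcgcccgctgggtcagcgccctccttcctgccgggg
SRRM2-AS1: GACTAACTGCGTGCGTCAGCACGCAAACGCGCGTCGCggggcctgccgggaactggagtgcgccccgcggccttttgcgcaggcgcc
LENG8-AS1: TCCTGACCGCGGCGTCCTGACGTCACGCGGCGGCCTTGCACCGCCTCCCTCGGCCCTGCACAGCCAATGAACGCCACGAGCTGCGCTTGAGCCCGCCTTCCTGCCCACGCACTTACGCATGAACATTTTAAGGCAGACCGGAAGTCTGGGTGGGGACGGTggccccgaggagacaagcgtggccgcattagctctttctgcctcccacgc
In RefSeq, 96, 37 and 160 bases lie between the starts. These stretches hold 18, 7 and 17 CG dinucleotides. In the deposited gene models the UBAC2 and SRRM2 pairs start 17 and 26 bases apart, and the LENG8 pair overlaps head to head.

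Levels spanned a wide range. Mean levels ran from 2.01 to 441 CPM with a median of 6.93, with 24 members at 50 CPM or more and 190 under 5. The members just inside the minimum were RALY-AS1, SOCS2-AS1 and HHIP-AS1, each at 2.01 CPM, and those just outside were VLDLR-AS1 at 1.97, TMSB15B-AS1 at 1.96 and ARNTL2-AS1 at 1.95. In every group 408 members had a mean of 2 CPM or more, while 78 were under it in at least 1 group. Of these, 10 were under it in every total RNA group and entered through polysome RNA, and 0 were under it in every polysome group. All 486 passed the filter on low counts and were tested.

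Per kilobase of exon, members ran from 0.137 to 299 CPM per kb with a median of 3.01, and their 466 distinct partners had a median of 5.85. In 160 of the 477 pairs the antisense RNA had the higher level per kb. MIF-AS1, opposite the gene of a secreted cytokine, was the highest in CPM at 441, and PCBP1-AS1 (173), VIM-AS1 (146) and LIX1L-AS1 (111) were also high. SLC25A5-AS1 (105), RUSC1-AS1 (103), PRMT5-AS1 (103), VPS9D1-AS1 (84.0) and PRC1-AS1 (82.7) were likewise among the 10 most abundant by CPM. These RNAs differed in how far opposite-strand genes could contribute. The opposite-gene share was 94.1% for MIF-AS1, 71.5% for PCBP1-AS1 and 67.4% for SLC25A5-AS1, but 11.0% for VPS9D1-AS1 and 26.8% for VIM-AS1. Per kb, VIM-AS1 was at 72.7 and VPS9D1-AS1 at 47.9 CPM, while PCBP1-AS1, with 30605 exon bases, was at 5.66. None of the 9 passed the test between polysome and total RNA in any line by edgeR's quasi-likelihood test. With the replicate number as a block, LIX1L-AS1 passed in every line, VPS9D1-AS1 in the YTHDF3-ADAR line (adjusted p = 0.0014) and RUSC1-AS1 in the YTHDF2-ADAR line (adjusted p = 0.023).

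The comparison of polysome with total RNA within each line asks which antisense RNAs take a larger or smaller share of polysome RNA than of all RNA. Most members did not pass the test: 374 of 486 were called in no line, 74 were lower in polysome RNA in at least 1 line, 38 were higher in at least 1, and 0 were called in both directions. No share of all genes was computed for calls in at least 1 line, so only the counts by line can be compared with all genes. In the YTHDF1-ADAR line 26 members were higher and 48 lower, against 9.26% and 11.9% of all genes tested. In the YTHDF2-ADAR line 15 were higher and 36 lower, against 6.71% and 9.04%. In the YTHDF3-ADAR line 18 were higher and 59 lower, against 8.01% and 12.1%. The members' own shares were 5.35, 3.09 and 3.70% higher and 9.88, 7.41 and 12.1% lower, so that the lower calls were near the share of all genes and the higher calls were below it. Calls are at an adjusted p under 0.05 by edgeR's quasi-likelihood test with Benjamini-Hochberg adjustment over all 26804 genes tested. Median log2 fold changes of the members were 0.015, 0.040 and −0.062 in the 3 lines, beside 0.033, 0.035 and −0.053 for all genes. In bulk libraries, fewer cells with an RNA and less of it per cell cannot be told apart.

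These counts depended on how the libraries were modelled. With the replicate number as a block, 65 members were higher and 91 lower in the YTHDF1-ADAR line (18.7% and 18% of all genes), 56 and 74 in the YTHDF2-ADAR line (15.5% and 15%), and 41 and 121 in the YTHDF3-ADAR line (13.6% and 20.1%). Without replicate 1 of the YTHDF3-ADAR line in both fractions, 54 members were higher and 72 lower there, against 16.3% and 13.6% of all genes. Fitted on the 6 libraries of a line alone, the YTHDF3-ADAR line had 0 members higher and 2 lower (0% and 0.879% of all genes), the YTHDF1-ADAR line 31 and 94 (12.2% and 17.9%), and the YTHDF2-ADAR line 45 and 89 (15.6% and 16.9%). Leaving out any 1 library of the compared groups gave 11 to 17 higher and 26 to 40 lower in the YTHDF1-ADAR line, 5 to 12 and 18 to 23 in the YTHDF2-ADAR line, and 7 to 40 and 35 to 74 in the YTHDF3-ADAR line. Without normalization factors the median over all genes moved to 0.46, 0.40 and 0.25 and the split turned to 219 higher and 12 lower (40.6% and 5.7% of all genes), 174 and 7 (33.9% and 5.09%), and 115 and 16 (25.3% and 6.22%). Directions below are therefore relative to the bulk of genes.

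Other gene groups in the same fit are given by their counts, shares and medians. Protein-coding genes at the same CPM minimum (12850) had 2176 higher and 887 lower in the YTHDF1-ADAR line (16.9% and 6.90%), with medians of 0.17, 0.16 and 0.081 in the 3 lines. The 459 tested partners had 59 higher and 40 lower, 46 and 19, and 60 and 43, with medians of 0.14, 0.12 and 0.036. As shares, 12.9, 10.0 and 13.1% of partners were higher and 8.71, 4.14 and 9.37% lower. Other lncRNAs at the same minimum (1780) had 99 higher and 236 lower, 71 and 189, and 87 and 265, with medians of 0.035, 0.034 and −0.062. Of them 5.56, 3.99 and 4.89% were higher and 13.3, 10.6 and 14.9% lower. The antisense RNAs had 5.35, 3.09 and 3.70% higher, 9.88, 7.41 and 12.1% lower, and medians of 0.015, 0.040 and −0.062. Among these groups, other lncRNAs were thus the closest to them in median. The 503 tested antisense RNAs under the minimum had 0 higher and 64, 43 and 55 lower (12.7, 8.55 and 10.9%), with medians of −0.31, −0.23 and −0.25. Over the 477 pairs, the log2 ratio of antisense to sense CPM changed from total to polysome RNA by a median of −0.077, −0.053 and −0.076.

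**Figure D1:**
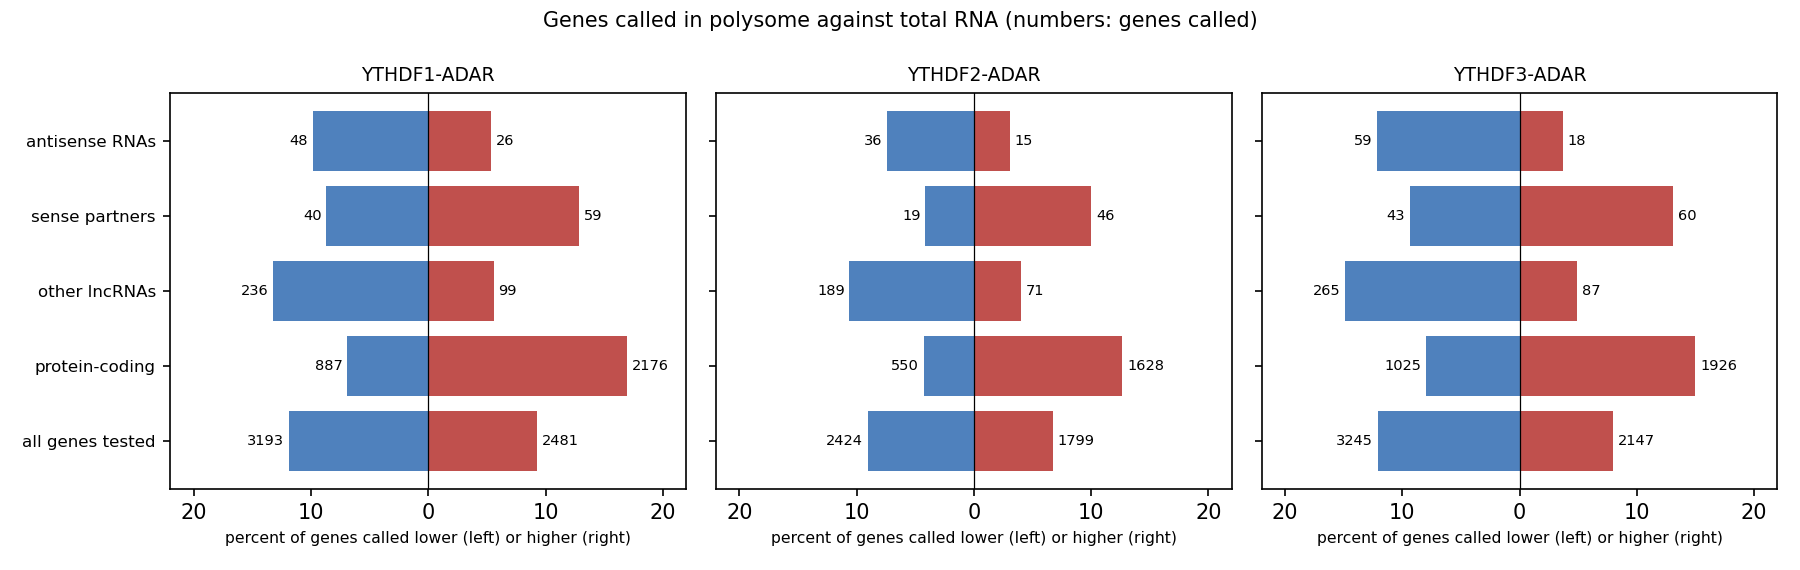
Percent of genes called higher (right of 0) or lower (left of 0) in polysome than in total RNA, with the number of genes at each bar, for 5 gene groups in the 3 fusion lines. The 486 antisense RNAs had 26, 15 and 18 members higher and 48, 36 and 59 lower, and protein-coding genes had more called higher than lower, with most not called.

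In every line 26 antisense RNAs were lower in polysome RNA, against 6.56% of all genes, and 5 were higher, against 3.7%. The contrasts are within lines and share no libraries, but all 3 use 1 estimate of spread. With the replicate block the counts were 62 (11.1% of all genes) and 17 (8.47%), and without replicate 1 of the YTHDF3-ADAR line they were 24 (5.6%) and 6 (4.34%). Without normalization factors the split turned to 7 lower (3.22%) and 87 higher (21.5%). Without replicate 1, MTOR-AS1, DDN-AS1 and ZNF295-AS1 did not pass in the YTHDF3-ADAR line (adjusted p = 0.080, 0.071 and 0.15). The 26 included FBXL19-AS1, LENG8-AS1, SLC9A3-AS1, C10orf95-AS1, MMP25-AS1, HOXC-AS2, ZSWIM8-AS1, PRR7-AS1, UBAC2-AS1, TNK2-AS1, SRRM2-AS1, TONSL-AS1, MTOR-AS1, CEP250-AS1, SLFNL1-AS1, MDC1-AS1, SLC16A1-AS1, HOXB-AS1, DDN-AS1, MZF1-AS1, ZNF295-AS1, RBM5-AS1, PPM1F-AS1, ZNF213-AS1 and TTC28-AS1. Their median opposite-gene share was 33.9%. Of the 23 with a tested partner, 11 had a partner that was lower in all 3 lines, 4 more had one lower in some, and 8 had a partner called in none. Partner means over the lines were below 0 in 20 pairs and above 0 in 3, among them those of UBAC2 and SLC16A1.

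FBXL19-AS1 (chr16:30919319-30923269, minus strand) opposes the gene of an F-box protein, the part of a ubiquitin ligase that selects substrates. In total RNA its libraries read 12.5, 10.5 and 14.5 CPM in the YTHDF1-ADAR line, 13.3, 16.2 and 16.2 in the YTHDF2-ADAR line and 15.0, 13.7 and 11.6 in the YTHDF3-ADAR line. In polysome RNA they read 4.67, 4.71 and 6.23, then 5.05, 7.77 and 5.88, then 5.18, 4.31 and 6.49. Every polysome library lay under every total RNA library, with no overlap in any line. The log2 fold changes were −1.26, −1.29 and −1.33, each ± 0.19 (SE), with adjusted p of 0.00035, 0.00037 and 0.00025. FBXL19 itself stood at −0.19, −0.062 and −0.25 and passed in no line. Only 2.48% of the antisense RNA's exon bases lie in opposite-strand exons, and its opposite-gene share is 26.9%.

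UBAC2-AS1 (chr13:99181223-99200757, minus strand), chosen after its values were seen, is a head-to-head member with no opposite exon bases. UBAC2 encodes a membrane protein of the endoplasmic reticulum with a ubiquitin-associated domain. In total RNA UBAC2-AS1 read 3.67, 3.32 and 3.47 CPM in the YTHDF1-ADAR line, 4.01, 2.86 and 4.10 in the YTHDF2-ADAR line, and 4.83, 5.29 and 5.59 in the YTHDF3-ADAR line. In polysome RNA it read 2.13, 2.02 and 1.78, 2.54, 1.86 and 1.91, and 3.07, 1.97 and 4.00. Within each line the fractions did not overlap on this TMM scale. Without the TMM factors that separation did not hold in every line. The log2 fold changes were −0.81, −0.80 and −0.80 (SE 0.22, adjusted p = 0.016, 0.022 and 0.016), while UBAC2 stood at 0.28, 0.28 and 0.14 and passed in no line.

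SRRM2-AS1 (chr16:2737076-2752600, minus strand), also chosen after its values were seen, starts next to the gene of a splicing factor that scaffolds nuclear speckles. Total RNA libraries read 9.95, 9.25 and 9.24 CPM, 12.3, 11.3 and 12.2, and 9.81, 7.18 and 6.76. Polysome libraries read 5.12, 5.14 and 5.33, 6.63, 8.39 and 7.02, and 5.73, 3.10 and 4.62. On the TMM scale the fractions did not overlap within any line, but without the factors they did not stay apart in every line. Here the antisense RNA fell by 0.87, 0.70 and 0.82 (SE 0.18, adjusted p = 0.0037, 0.016 and 0.0054) and SRRM2 fell too, by 1.36, 1.16 and 0.91.

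LENG8-AS1 (chr19:54444807-54449045, minus strand) resembled SRRM2-AS1 in that its partner moved with it. It read 5.05, 3.85 and 4.05 CPM, 4.01, 4.53 and 4.50, and 4.54, 6.30 and 5.59 in total RNA. In polysome RNA it read 1.73, 1.78 and 1.80, 1.77, 2.07 and 1.95, and 1.73, 2.19 and 2.78. All 9 polysome libraries lay under all 9 total RNA libraries on the TMM scale, but not without the TMM factors. The changes were −1.29, −1.17 and −1.29 (SE 0.18, adjusted p = 0.00016, 0.00045 and 0.00016), beside −1.59, −1.39 and −1.19 for LENG8. The opposite-gene share of LENG8-AS1 is 44.0%.

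Other members at the low end moved with or without their partners. SLC9A3-AS1, opposite the gene of a sodium/proton exchanger, read 18.7 to 26.0 CPM over all total RNA libraries and 8.37 to 10.7 over all polysome libraries. Its fold changes were −1.23, −1.18 and −1.32 (SE 0.13, adjusted p = 1.1e-05, 2.2e-05 and 6.2e-06), and SLC9A3 passed only in the YTHDF3-ADAR line at −0.37 (adjusted p = 0.034). C10orf95-AS1 fell by 1.16, 1.16 and 1.03 and MMP25-AS1, opposite the gene of a membrane-anchored matrix metalloproteinase, by 0.86, 0.91 and 1.02. The partners of both passed in every line as well. RNF213-AS1, ZNF436-AS1, NOP53-AS1 and NCAM1-AS1 were also among the 12 lowest and did not pass in every line without the replicate block. RNF213-AS1 passed in the YTHDF1-ADAR line at −1.02, and stood at −0.76 (adjusted p = 0.1) and −0.84 (adjusted p = 0.054) elsewhere. Its YTHDF3-ADAR total RNA libraries read 8.44, 19.1 and 20.0 CPM, with replicate 1 the low one. With the replicate block those adjusted p became 0.00016 and 3.3e-05, and without replicate 1 the YTHDF3-ADAR value was −0.76 (adjusted p = 0.00023). ZNF436-AS1 passed in the YTHDF2-ADAR line at −1.01, while ZNF436 stood at 0.18 there, and with the block ZNF436-AS1 passed in every line (adjusted p = 0.00039, 0.00019 and 0.00075). NOP53-AS1, opposite the gene of a ribosome assembly factor, passed in the YTHDF3-ADAR line at −1.29 (adjusted p = 0.006), where NOP53 stood at −1.18. With the block NOP53-AS1 passed also in the YTHDF2-ADAR line (adjusted p = 0.045). NCAM1-AS1, opposite the gene of a neural adhesion molecule, passed in the YTHDF1-ADAR line at −0.99 (adjusted p = 0.044), where NCAM1 stood at −0.94 (adjusted p = 0.036). With the block NCAM1-AS1 passed in every line (adjusted p = 0.00053, 0.0019 and 0.0026).

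**Figure D2:**
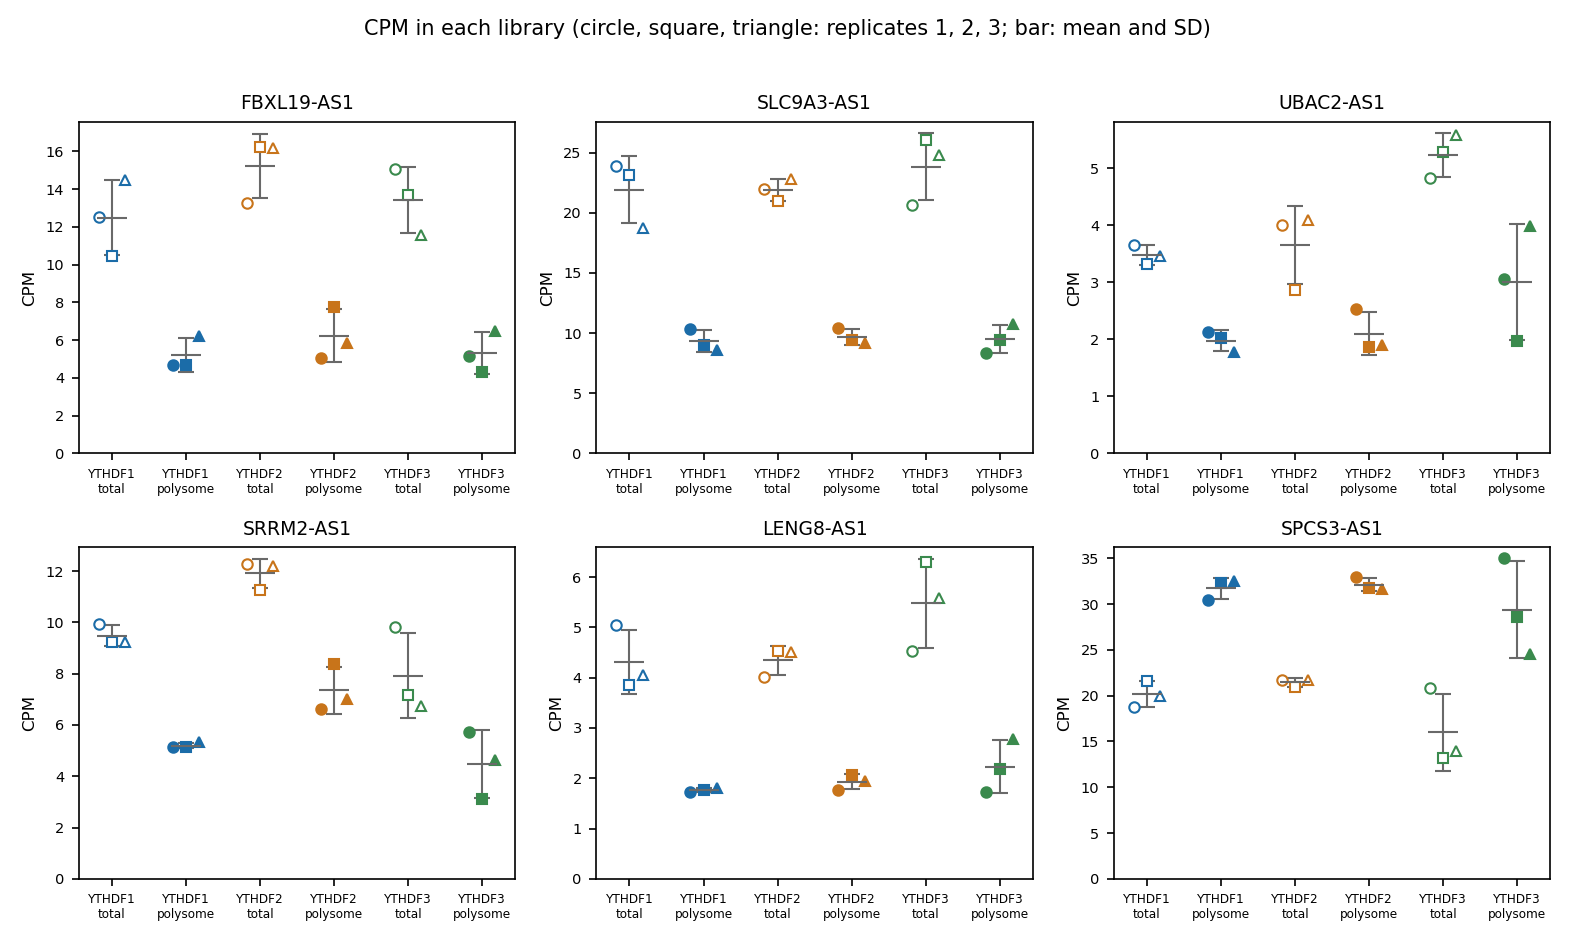
CPM of 6 antisense RNAs in all 18 libraries by fusion line, with open symbols for total RNA, filled symbols for polysome RNA, marker shapes for replicates 1 to 3, and bars for mean and SD. FBXL19-AS1, SLC9A3-AS1, UBAC2-AS1, SRRM2-AS1 and LENG8-AS1 read lower in the polysome libraries of each line, and SPCS3-AS1 higher. CPM values are scaled by TMM.

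At the other end, SPCS3-AS1, GPAT4-AS1, FKBP14-AS1, LMO7-AS1 and MYL12-AS1 were higher in polysome RNA in every line. SPCS3-AS1 opposes a subunit gene of signal peptidase, which removes signal peptides from secreted proteins. Its total RNA libraries read 18.8, 21.6 and 20.0 CPM, 21.7, 20.9 and 21.7, and 20.8, 13.2 and 13.9, and its polysome libraries 30.4, 32.3 and 32.5, 33.0, 31.8 and 31.7, and 35.1, 28.6 and 24.6. No polysome library fell to the level of any total RNA library. It rose by 0.66, 0.58 and 0.88 (SE 0.15, adjusted p = 0.0056, 0.013 and 0.00084), and SPCS3 rose by 0.62, 0.54 and 0.85. Of the antisense RNA's exon bases, 51.5% lie in opposite-strand exons.

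The remaining 4 showed both kinds of pair. FKBP14-AS1 rose by 0.36, 0.46 and 0.46 and FKBP14, a prolyl isomerase of the endoplasmic reticulum, by 0.47, 0.42 and 0.53. GPAT4-AS1 rose by 0.44, 0.35 and 0.29, and LMO7-AS1 by 0.55, 0.45 and 0.47, while GPAT4, an acyltransferase of glycerolipid synthesis, and LMO7 passed in no line. The opposite-gene share was 73.2% for GPAT4-AS1 and 24.4% for LMO7-AS1, to which UCHL3 rather than LMO7 could add the most reads. MYL12-AS1 rose by 0.68, 0.63 and 0.62, and its stem symbol matches no row. The 12 highest by mean change also held DENND5B-AS1, which has no opposite exon bases. It passed in the first 2 lines at 0.66 and 0.50 and stood at 0.32 (adjusted p = 0.12) in the YTHDF3-ADAR line, or 0.49 (adjusted p = 0.019) without replicate 1. TICAM2-AS1, PTPRG-AS1 and CERS6-AS1 passed in the YTHDF1-ADAR and YTHDF3-ADAR lines, with TICAM2-AS1 at 0.38 (adjusted p = 0.059, with the block 0.021) in the YTHDF2-ADAR line. TTBK2-AS1, TBL1XR1-AS1, OPA1-AS1 and HMMR-AS1 passed only in the YTHDF3-ADAR line, at 0.90, 0.92, 0.75 and 1.07. OPA1 encodes a fusion protein of the inner mitochondrial membrane, and HMMR a hyaluronan receptor tied to the spindle. The calls of OPA1-AS1 and HMMR-AS1 were not kept with the block (adjusted p = 0.079 and 0.067). Without replicate 1 of that line the 4 stood at 1.25, 1.13, 1.11 and 1.42 and passed. SLC7A11-AS1, opposite the gene of the cystine/glutamate antiporter, had 1.38 ± 0.54 there and did not pass (adjusted p = 0.085, with the block 0.027). The opposite-gene share was 105% for CERS6-AS1, 97.4% for SLC7A11-AS1 and 76.9% for TTBK2-AS1. It ran from 27.1 to 37.9% for HMMR-AS1, TBL1XR1-AS1, OPA1-AS1, TICAM2-AS1 and PTPRG-AS1. The part of opposite-gene reads in these rises was not tested.

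**Figure D3:**
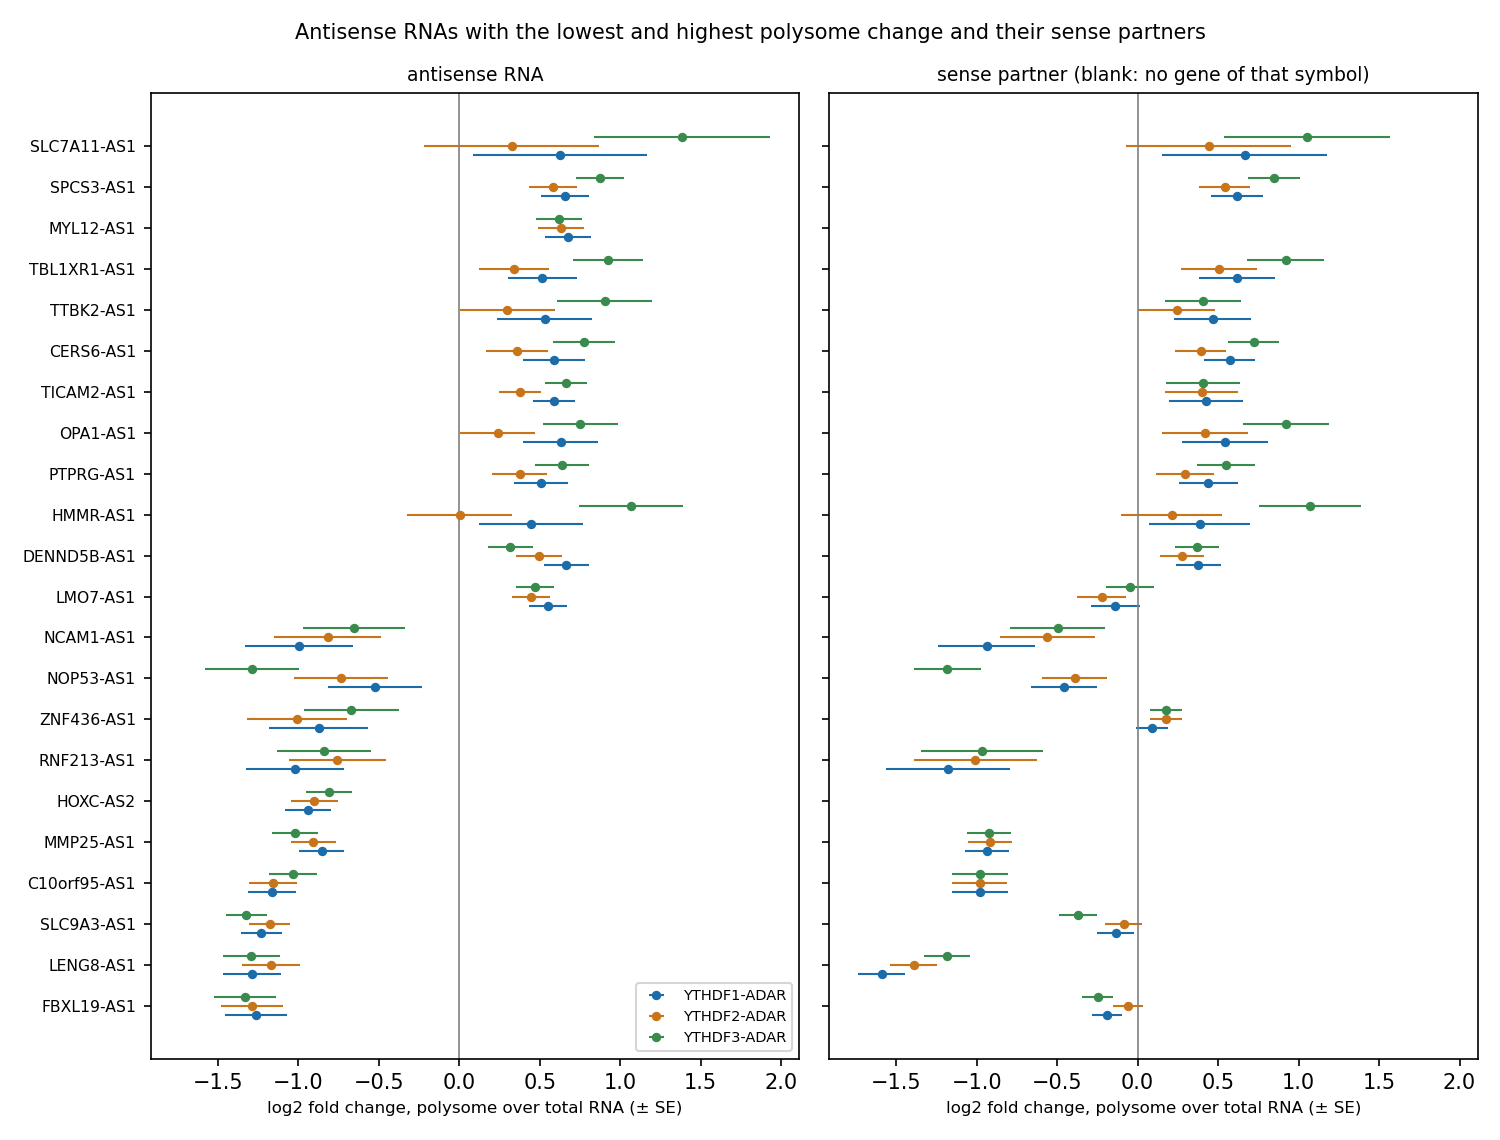
Log2 fold change with SE, polysome against total RNA, of members from the 12 with the lowest and the 12 with the highest mean change, in each fusion line, beside the same values of their sense partners where these have a row. FBXL19-AS1 and SLC9A3-AS1 lie between −1.18 and −1.33 with partners between −0.37 and −0.062, while LENG8-AS1 and SPCS3-AS1 lie beside partners that moved the same way.

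Across all 470 pairs in which both genes were tested, the mean log2 fold changes of antisense RNA and partner had the same sign in 335, with a Pearson r of 0.61 and a Spearman rho of 0.59. The pairs share libraries and, where exons overlap, possibly reads, so this is a description. By opposite-gene share, r was 0.27 in the 100 pairs under 10%, 0.71 in the 249 from 10 to 50% and 0.68 in the 121 at 50% or more. Same-sign pairs numbered 55, 183 and 97. In the 35 pairs with no opposite exon bases r was 0.0082, and 15 had the same sign. The limits of 10 and 50% were chosen after seeing the data.

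**Figure D4:**
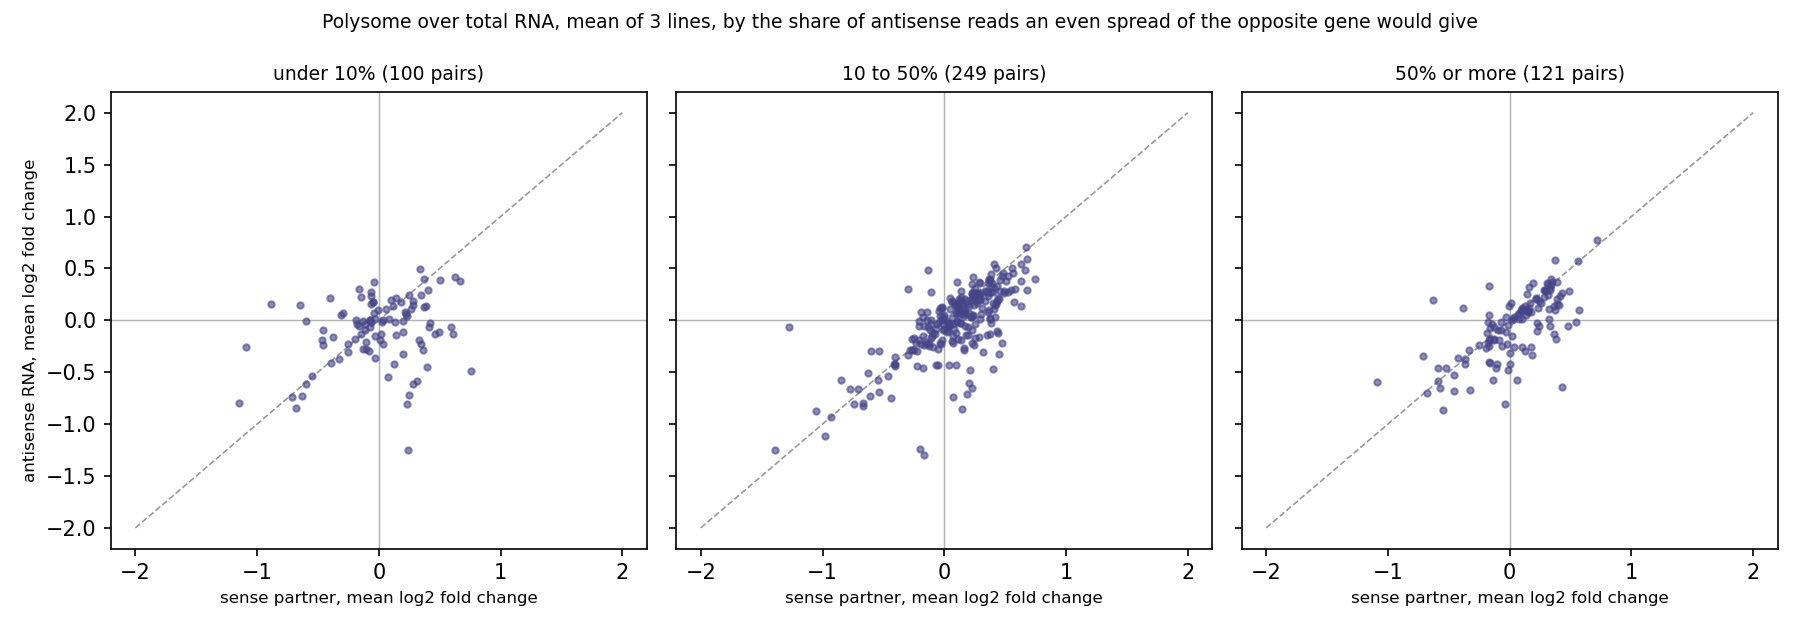
Mean log2 fold change over the 3 lines, polysome against total RNA, of each antisense RNA (vertical) against its sense partner (horizontal), in 3 panels by opposite-gene share. The points follow the diagonal more closely in the 249 pairs from 10 to 50% (r of 0.71) and the 121 at 50% or more (0.68) than in the 100 under 10% (0.27).

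The members with no or little shared exon sequence gave small counts. Among all genes, 9.26, 6.71 and 8.01% were higher and 11.9, 9.04 and 12.1% lower in the 3 lines. Of the 35 with no opposite exon bases, 1 was higher and 4 lower in the YTHDF1-ADAR line, 1 and 2 in the YTHDF2-ADAR line, and 0 and 5 in the YTHDF3-ADAR line, with medians of −0.016, −0.023 and −0.26. Of the 101 with an opposite-gene share under 10%, 3 were higher and 7 lower, 2 and 4, and 0 and 13. Of the 16 outside any opposite-strand gene, 0 were higher and 2, 2 and 3 lower. As shares, 11.4, 5.71 and 14.3% of the 35 were lower, and 6.93, 3.96 and 12.9% of the 101.

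Counts by arrangement are given in the order of the lines. Among all genes, 9.26, 6.71 and 8.01% were higher and 11.9, 9.04 and 12.1% lower. Head-to-head overlapping members (204) had 10 higher and 16 lower, 7 and 14, and 8 and 20. That is 4.90, 3.43 and 3.92% higher and 7.84, 6.86 and 9.80% lower, under the shares of all genes. Members inside their partner (114) had 4 and 13, 1 and 10, and 3 and 13, and tail-to-tail overlapping members (100) had 7 and 8, 3 and 2, and 5 and 9. Members spanning their partner (36) had 4 and 6, 3 and 5, and 1 and 8. The lower shares were 11.4, 8.77 and 11.4% for those inside their partner and 16.7, 13.9 and 22.2% for those spanning it. The 22 head-to-head members that do not overlap their partner had 0 higher in each line and 2, 2 and 4 lower. UBAC2-AS1 and SRRM2-AS1 were the 2 lower in every line. Some of the others stood opposite to their partner, named after their values were seen: SCAMP1-AS1 had a mean of −0.49 over the lines beside 0.75 for SCAMP1, a secretory carrier membrane protein, and TPT1-AS1 had 0.19 beside −0.63 for TPT1.

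Antisense RNAs of the HOX clusters, which hold the homeobox genes of body patterning, number 7 in the set. In the YTHDF1-ADAR line 0 were higher and 2 lower, and the counts were 0 and 2, and 0 and 4, in the other lines, with medians of −0.47, −0.51 and −0.71. Among all genes, 9.26, 6.71 and 8.01% were higher and 11.9, 9.04 and 12.1% lower. HOXC-AS2 fell by 0.94, 0.90 and 0.81 and HOXB-AS1 by 0.41, 0.62 and 0.71 in all 3 lines, although for HOXB-AS1 the YTHDF1-ADAR value was 0.030 without normalization factors. HOXA-AS2 and HOXA-AS3 passed in the YTHDF3-ADAR line at −0.74 and −1.0, and in every line with the block. HOXD-AS2 stood at −0.55, −0.51 and −0.56 and passed in no line without the block and in every line with it (adjusted p = 0.0043, 0.0085 and 0.0057). HOXB-AS3 stood at −0.52 in the YTHDF3-ADAR line (adjusted p = 0.072, with the block 0.0003), and HOXC-AS3 passed in none. This group of 7 was formed after their values were seen.

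A list of antisense RNAs with a studied function overlapped the set in 27 members. In the 3 lines 1, 1 and 0 were higher, against 9.26%, 6.71% and 8.01% of all genes, and 3, 0 and 7 lower, against 11.9%, 9.04% and 12.1%. CDKN2B-AS1, also called ANRIL and known for silencing the cell cycle inhibitor locus it spans, was the one higher, at 0.45 and 0.52 in the first 2 lines. It stood at 0.29 in the YTHDF3-ADAR line (adjusted p = 0.12, with the block 0.011). MCM3AP-AS1 (−0.42 and −0.35), ASH1L-AS1 (−0.40 and −0.64) and SNAI3-AS1 (−0.41 and −0.49) were lower in the YTHDF1-ADAR and YTHDF3-ADAR lines. KDM4A-AS1, FGD5-AS1, HOXA-AS2 and HOXA-AS3 were lower in the YTHDF3-ADAR line, KDM4A-AS1 not without replicate 1 (adjusted p = 0.056). On a reference list of 10 lncRNAs taken as nuclear, 0 were higher and 3 lower in each line (MALAT1, TERC and PVT1). On a list of 12 RNAs taken as cytoplasmic, 0 were higher and 2, 2 and 5 lower. TUG1 in that list has the biotype protein coding here. Where the RNAs of both lists lie in these cells was not tested, and some may lie in both places. The exceptions to the naming rule are in the list taken as cytoplasmic: OIP5-AS1, at 89.5 CPM on average, stood at −0.18, −0.31 and −0.32 and passed in no line. EPB41L4A-AS1, at 21.4 CPM, passed in the YTHDF3-ADAR line at −1.05 (adjusted p = 0.0036) and stood at −0.57 and −0.59 in the others.

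The test of whether the polysome change differs between lines called 0 members, and 0% of all genes, in each of the 3 pairs of lines by edgeR's quasi-likelihood test, and DESeq2 also called 0. At an unadjusted p under 0.05 the members numbered 0, 5 and 9 for YTHDF2-ADAR against YTHDF1-ADAR, YTHDF3-ADAR against YTHDF1-ADAR, and YTHDF3-ADAR against YTHDF2-ADAR, beside 0.619%, 3.27% and 2.99% of all genes. The differences with the largest size were, in the first pair, PHKA2-AS1 (0.62), COL4A2-AS1 (0.61), ASMTL-AS1 (−0.55), ATP2B1-AS1 (0.51) and TAB3-AS2 (−0.48). In the next pair they were GAS5-AS1 (−0.86), VCAN-AS1 (0.76), SLC7A11-AS1 (0.76), NOP53-AS1 (−0.76) and PDCD4-AS1 (−0.73), and in the last VCAN-AS1 (1.15), HMMR-AS1 (1.07), SLC7A11-AS1 (1.06), TAX1BP1-AS1 (0.99) and IGBP1-AS2 (−0.76). Each pair of lines shares a line with the other pairs. Without replicate 1 of the YTHDF3-ADAR line, IGBP1-AS2 was called in both pairs with that line, at −0.83 ± 0.18 (adjusted p = 0.0377) and −0.97 (adjusted p = 0.012), and SLC25A5-AS1 against YTHDF2-ADAR at −0.68 (adjusted p = 0.0219). The YTHDF3-ADAR libraries of IGBP1-AS2 read 5.07, 10.7 and 11.0 CPM in total RNA and 6.13, 5.84 and 7.05 in polysome RNA.

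Total RNA was then compared between the lines, which differ in the fusion and in any other way the lines differ, and these cannot be told apart. Against YTHDF1-ADAR, 3 members were higher and 6 lower in YTHDF2-ADAR (0.545% and 1.28% of all genes). In YTHDF3-ADAR, 55 were higher and 26 lower against YTHDF1-ADAR (11.6% and 6.52%), and 66 and 32 against YTHDF2-ADAR (15.2% and 7.57%). Without replicate 1 of the YTHDF3-ADAR line these became 134 and 93 (24.2% and 22% of all genes), and 141 and 109 (26.1% and 24.2%). Against YTHDF1-ADAR the counts fell to 9 and 8 without YTHDF3-ADAR total RNA replicate 2, to 14 and 9 without replicate 3, and to 17 and 12 without YTHDF1-ADAR total RNA replicate 3. With a block that tied equal replicate numbers across the lines within a fraction, the counts were 34 and 23. The labels do not say that such replicates belong together. Of the 35 members with no opposite exon bases, 0 differed between YTHDF2-ADAR and YTHDF1-ADAR, 10 were higher and 2 lower in YTHDF3-ADAR against YTHDF1-ADAR, and 7 and 2 against YTHDF2-ADAR.

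RALGPS2-AS1 and ASMTL-AS1 had the widest gaps between lines. RALGPS2-AS1, opposite a guanine exchange factor gene for Ral, read 19.2, 20.3 and 24.3 CPM in the total RNA of the YTHDF1-ADAR line, 2.55, 3.61 and 4.01 in YTHDF2-ADAR and 3.87, 2.57 and 3.19 in YTHDF3-ADAR. It was high in the first line and low in the others, with no overlap. The log2 differences from the YTHDF1-ADAR line were −2.64 and −2.73 (SE 0.18, adjusted p = 4.6e-07 and 1.2e-07), and RALGPS2 differed by −0.81 (adjusted p = 0.206) and −1.09 (adjusted p = 0.013). ASMTL-AS1 read 24.9, 21.8 and 38.8, then 3.29, 2.88 and 3.37, then 2.53, 6.92 and 6.95, again high in the first line alone. Its differences were −3.16 and −2.38, beside −3.28 and −2.23 for ASMTL. CDKN2B-AS1 went the other way, at 31.9, 36.6 and 28.7 CPM in the YTHDF1-ADAR line, 61.1, 51.1 and 59.3 in YTHDF2-ADAR and 55.7, 69.7 and 71.7 in YTHDF3-ADAR. Its difference in YTHDF2-ADAR was 0.82 (adjusted p = 0.0017), while CDKN2B, at 0.41, did not pass. The opposite-gene share of CDKN2B-AS1 was 49.4%, and CDKN2A rather than CDKN2B could add the most reads to it.

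Other members differed between lines as well. Against YTHDF1-ADAR, CCND2-AS1 (0.73) and ZNF337-AS1 (0.55) were higher in YTHDF2-ADAR, and HOXB-AS3 (−0.93), ALDH1A2-AS1 (−0.83) and HOXB-AS1 (−0.53) lower. Their partners CCND2, ZNF337 and ALDH1A2 differed by 0.75, 0.56 and −0.74, and the stem HOXB matches no row. In YTHDF3-ADAR, FZD10-AS1, opposite a Wnt receptor gene, read 6.24, 13.5 and 13.0 CPM against 2.04, 2.64 and 2.62 in YTHDF1-ADAR. Replicate 1 was the lowest of its group and still above every YTHDF1-ADAR library. The difference was 2.16 (adjusted p = 8.8e-05), and 2.41 without that replicate. FOXD2-AS1, with no opposite exon bases, read 7.86, 18.3 and 16.3 and was higher by 1.25 (adjusted p = 0.0064), or 1.51 without replicate 1. DCST1-AS1 (1.52), THBS3-AS1 (1.48) and EML2-AS1 (1.34) were also higher. Their partners DCST1, THBS3 and EML2 differed by 1.15, 1.47 and 1.41. FZD10 differed by 0.99, and FOXD2, at 0.26, did not pass. ZNF503-AS2 was lower by −1.24 (adjusted p = 0.049) with libraries at 50.3, 21.3 and 18.3, and by −1.88 without replicate 1, the high one. ZNF232-AS1 (−0.98) and OTUD6B-AS1 (−0.93) were lower as well. Their partners ZNF232 and OTUD6B differed by −0.88 and −1.03, and ZNF503, at −1.18, did not pass. With the block of replicate numbers across lines, EML2-AS1 and OTUD6B-AS1 did not pass (adjusted p = 0.0576 and 0.0512). Against YTHDF2-ADAR, which shares the YTHDF3-ADAR libraries, ALDH1A3-AS1 (1.83), EML2-AS1 (1.62), PIK3CD-AS2 (1.52), DCST1-AS1 (1.51) and FOXD2-AS1 (1.43) were the 5 highest. SLC25A25-AS1 (−0.97), ZNF232-AS1 (−0.88), MORC2-AS1 (−0.86), SMIM15-AS1 (−0.80) and VPS9D1-AS1 (−0.79) were the 5 lowest. In the same order, partners of the 5 highest differed by 1.86, 1.60, 1.56, 1.33 and 0.63. Partners of the 5 lowest differed by −0.12, −0.90, −0.63, −0.65 and −0.50, and SLC25A25 and VPS9D1 did not pass. The opposite-gene share was 121% for EML2-AS1 and 125% for MORC2-AS1. The part of opposite-gene reads in these differences was not tested.

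**Figure D5:**
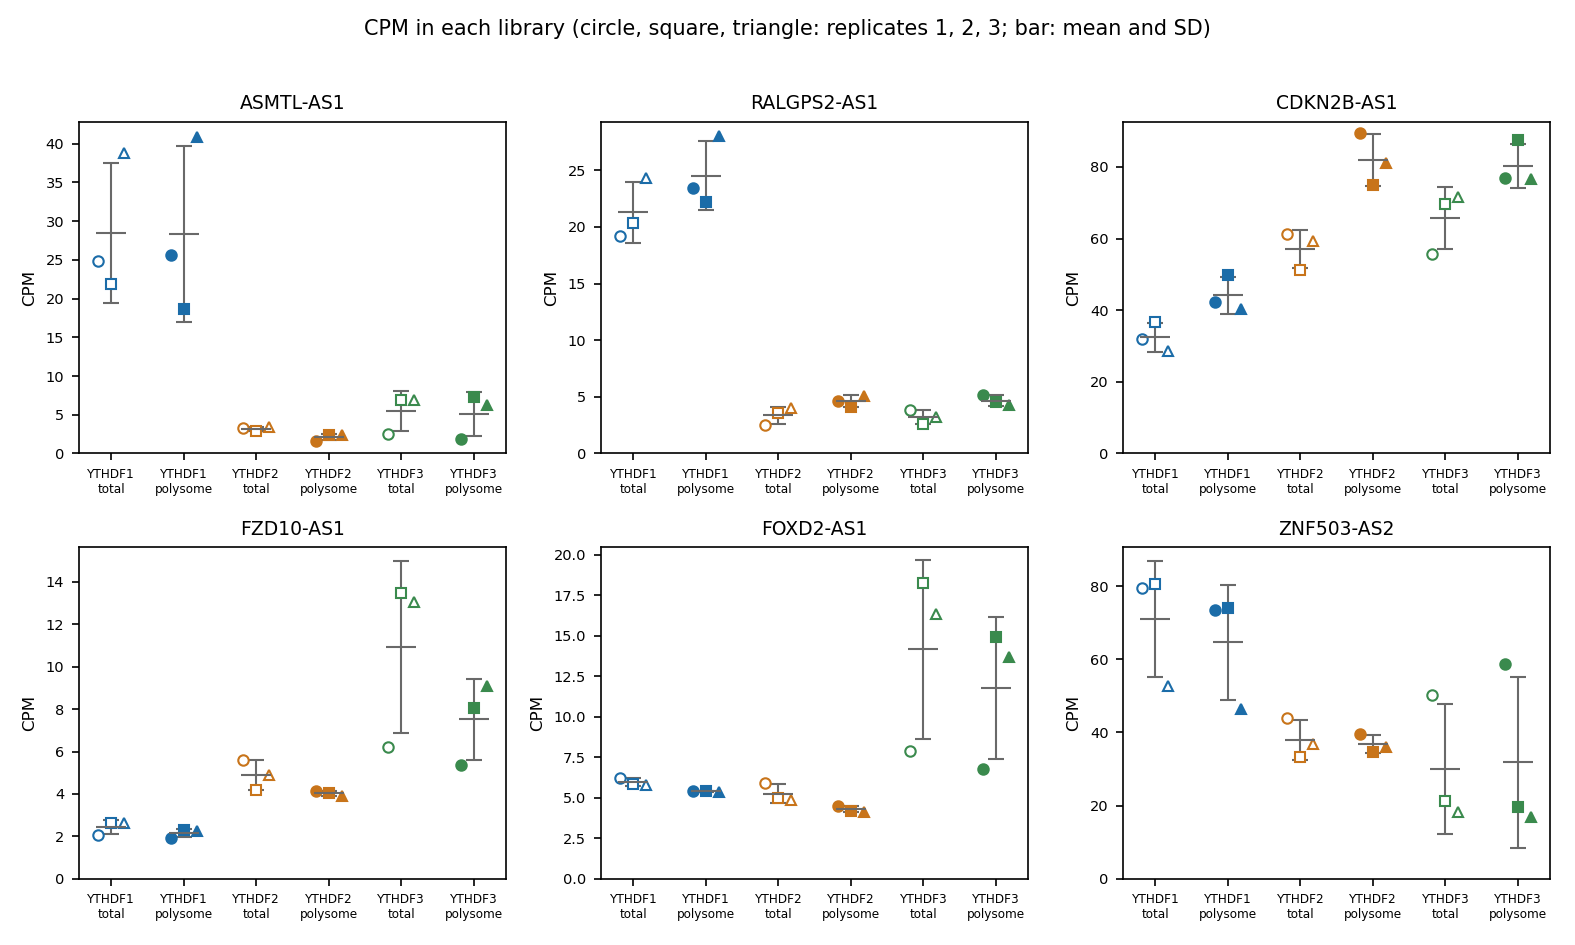
CPM of 6 antisense RNAs in all 18 libraries by fusion line, with open symbols for total RNA, filled symbols for polysome RNA, marker shapes for replicates 1 to 3, and bars for mean and SD. ASMTL-AS1 and RALGPS2-AS1 are high in the YTHDF1-ADAR line, CDKN2B-AS1 is low there, and replicate 1 of the YTHDF3-ADAR line lies apart for FZD10-AS1, FOXD2-AS1 and ZNF503-AS2. CPM values are scaled by TMM.

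The deposited tables of editing by each fusion list 0 of the 486 antisense RNAs. They hold 6858, 4547 and 7042 genes, and every gene matched by name is protein coding, so they give no editing value for an antisense RNA. Of the 439 partners at the CPM minimum, 267 (60.8%), 170 (38.7%) and 249 (56.7%) were listed as edited, against 53.7, 35.3 and 54.3% of 12417 protein-coding genes at that minimum. That set is smaller than the 12850 protein-coding genes given above for the fit. In the authors' deposited table, ATP2B1, a plasma membrane calcium pump opposed by ATP2B1-AS1, had 104, 101 and 117 edited sites with YTHDF1-ADAR, YTHDF2-ADAR and YTHDF3-ADAR. The authors' deposited table gives FBXL19 14, 2 and 10 edited sites and LENG8 7, 7 and 9. A further table of the authors holds a comparison it does not name. In the authors' deposited table for it, 30 of the antisense RNAs were higher and 60 lower at an adjusted p under 0.05.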

How the data were processed

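Ribosomal-RNA-depleted libraries of total and polysome RNA were made from 3 HEK293T lines, with 3 libraries in each of 6 groups. The authors deposited raw read counts per gene with the summed exon length of each gene in bases. STAR 2.7.7 and featureCounts 2.0.1 with the GRCh38 build are named in the submitters' processing notes, but no source used here states the strand setting, the treatment of overlaps or the annotation release. Per the file headers, the authors' comparison table holds log2 fold changes, a test score, p-values and a normalised mean signal. Per the file headers, the authors' editing tables hold edited-site counts, a summed score per gene, adjusted p-values and a log ratio. Checked against the deposited scores, that log is the natural log of an odds ratio.

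One row that is not human was left out. Counts were divided by their column sum and multiplied by 1000000 to give CPM for the set rule and for mean levels. CPM values of single libraries, in the text and figures, used library totals multiplied by the TMM factors. edgeR 4.0.16 (R 4.3.3, limma 3.58.1) fitted 6 group means to all 18 libraries, with filterByExpr at a minimum count of 10, TMM normalization, robust quasi-likelihood dispersion and Benjamini-Hochberg adjustment over all genes tested, at 0.05. The log2 fold changes carry the model's standard errors. Pair ratios used a pseudocount of 0.5 counts. Library totals of 42699303 to 67549159 counts bound the counting precision. Every pair of libraries of a group differed by more than sampling noise (lowest chi-square over its degrees of freedom 6.98). Alternatives were DESeq2 1.42.0, DESeq2 size factors, no normalization factors, no filter, the compared libraries only, each library left out, other CPM minimums (1 and 5), a pseudocount of 2, at least 5 edited sites, and the replicate number as a block. Chosen after seeing the data were members with no opposite exon, members with an opposite-gene share under 10%, and leaving out YTHDF3-ADAR replicate 1 in both fractions.

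The same-numbered total and polysome libraries deviated together, with 9 of 9 correlations of deviations from the group means between 0.184 and 0.687. Some pairs of other numbers were as high or higher. In YTHDF3-ADAR, total RNA replicate 3 with polysome replicate 2 gave 0.611, and 2 with 3 gave 0.418. The same-numbered values there were 0.555 (3 with 3) and 0.357 (2 with 2). In YTHDF1-ADAR, 1 with 2 gave 0.299 against 0.219 for 1 with 1. The block is treated as a pairing by number, but the correlations do not single out that pairing for these replicates. The labels give only numbers, so results with the block rest on an assumed pairing. For total RNA between lines another block was used, which tied equal replicate numbers across lines within a fraction. That tie is assumed too and was not checked by these correlations.

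The members and all gene lists were chosen with earlier results of these data known. Named are the 12 members with the lowest and the 12 with the highest mean polysome change, the 10 with the highest mean CPM, the 5 highest and 5 lowest called in each contrast of total RNA, and the 5 with the largest difference of the polysome change in each pair of lines. Members beside the CPM minimum, the partners of named members and the exceptions of the rule are named too. Other members were named after their values were seen. Some members that this rule would name are not reported here.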

Additional observations from a re-analysis of the deposited data

Results flagged for a closer look

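PDCD4-AS1, opposite the gene of a translation inhibitor, is listed because its libraries, as scaled by TMM, moved in opposite directions in 2 lines from total to polysome RNA. In the YTHDF1-ADAR line it read 1.50, 2.24 and 1.50 CPM in total RNA and 1.74, 2.50 and 1.67 in polysome RNA, higher in each same-numbered pair. In the YTHDF3-ADAR line it read 2.26, 4.14 and 4.03 in total RNA and 1.52, 2.34 and 3.17 in polysome RNA, lower in each pair. Without the TMM factors replicate 3 of that line was not lower in polysome RNA, so the pattern depends on the scaling. The difference of the log2 fold changes, YTHDF3-ADAR minus YTHDF1-ADAR, was −0.73 (SE 0.41, unadjusted p = 0.0912 and adjusted p = 1.00 by edgeR's quasi-likelihood test). With the replicate block it was −0.75 (unadjusted p = 0.00261, adjusted p = 0.636), with DESeq2 −0.67 (unadjusted p = 0.104), and without YTHDF3-ADAR replicate 1 in both fractions −0.69 (adjusted p = 0.356). The difference did not pass the adjustment in any of these fits.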

How the results depend on the processing

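Leaving out 1 library at a time gave these ranges. Members higher and lower in polysome RNA were 11 to 17 and 26 to 40 in YTHDF1-ADAR, 5 to 12 and 18 to 23 in YTHDF2-ADAR, and 7 to 40 and 35 to 74 in YTHDF3-ADAR, with medians of 0.0024 to 0.029, 0.0083 to 0.057 and −0.083 to 0.0076. In YTHDF3-ADAR the counts were 40 and 64 without total RNA replicate 1, 35 and 71 without polysome replicate 1, and 7 and 35 without polysome replicate 2. Partners were 29 to 53 and 21 to 34, 19 to 35 and 12 to 15, and 17 to 118 and 28 to 62, with medians of 0.13 to 0.16, 0.10 to 0.13 and 0.025 to 0.13. Differences of the polysome change between lines called 0 members throughout, with medians of −0.0079 to 0.043, −0.083 to −0.032 and −0.11 to −0.042. In total RNA, members higher and lower were 3 to 4 and 2 to 5 (YTHDF2-ADAR against YTHDF1-ADAR), 9 to 107 and 8 to 64 (YTHDF3-ADAR against YTHDF1-ADAR), and 24 to 115 and 7 to 75 (YTHDF3-ADAR against YTHDF2-ADAR), with medians of 0.0021 to 0.035, 0.045 to 0.091 and 0.032 to 0.072.

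Leaving out YTHDF3-ADAR replicate 1 in both fractions removes 2 libraries. Members higher and lower in polysome RNA were then 54 and 72 in YTHDF3-ADAR, and partners 123 and 64 (median 0.070). In total RNA members were 134 and 93 against YTHDF1-ADAR, and 141 and 109 against YTHDF2-ADAR (median 0.031). Differences of the polysome change from YTHDF1-ADAR and YTHDF2-ADAR called 1 and 2 members.

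With the replicate block, members higher and lower in polysome RNA were 65 and 91, 56 and 74, and 41 and 121 in the 3 lines. With the block, partners were 132 higher, 103 and 45, and 94 and 78. In total RNA, with the block of replicate numbers across lines, 3 members were lower in YTHDF2-ADAR and 34 higher in YTHDF3-ADAR, each against YTHDF1-ADAR. The block left the 0 calls for differences between lines at 0. Of 220 values of single members and contrasts, 173 stayed on their side of the threshold with the block, 41 came to pass and 6 no longer passed.

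With only the compared libraries in the fit, members were 94 lower in YTHDF1-ADAR (median −0.038), 45 and 89 in YTHDF2-ADAR, and 0 and 2 in YTHDF3-ADAR. In total RNA they were 9 and 10, 2 and 3, and 16 and 3. Partners were 61 lower (median 0.085), 90 and 58 (median 0.082), and 0 and 2.

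Without normalization factors, members were 219 and 12, 174 and 7, and 115 and 16, with medians of 0.45, 0.40 and 0.25. Partners were 294 and 10, 238 and 7, and 180 and 16, with medians of 0.57, 0.49 and 0.33. In total RNA they were 3 lower, 156 and 6 (median 0.30), and 129 and 8 (median 0.25). The medians of the differences were −0.051 and −0.19, and HOXB-AS1 turned to 0.030 in YTHDF1-ADAR. The cause was not tested.

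Without the filter, members were 12 and 5 higher in YTHDF1-ADAR and YTHDF2-ADAR and 38 lower in YTHDF3-ADAR. In total RNA they were 3 lower, 33 higher, and 43 higher (median 0.011). Partners were 29 higher in YTHDF2-ADAR and 25 lower in YTHDF3-ADAR (median 0.11). DESeq2 gave 40 members and 94 partners higher in YTHDF3-ADAR, partner medians of 0.10 in YTHDF2-ADAR and 0.079 in YTHDF3-ADAR (0.10 and 0.080 with its size factors in edgeR), and in total RNA 5 higher in YTHDF2-ADAR against YTHDF1-ADAR and 54 lower in YTHDF3-ADAR against YTHDF2-ADAR.

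By construction, smaller sets gave smaller counts. Members with an opposite-gene share under 10% were 3 and 7, 2 and 4, and 0 and 13, and those with no opposite exon 1 and 4, 1 and 2 (median −0.023), and 0 and 5 (median −0.26). Other CPM minimums, another pseudocount for the pair ratios and a site minimum left the shares called, the ratios and the 0 listed members close to their values, with members called higher in YTHDF3-ADAR between 2.92 and 5.41%. Fits without 1 of 3 libraries assume that the remaining libraries vary like the other groups. Depth limits members near 2 CPM the most.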
